A study of Triticum dicoccoides with 12 samples.

Results

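Y12-3 is a genotype of wild emmer, the wild form of tetraploid wheat (Triticum turgidum subsp. dicoccoides), and the response of its roots to water stress was measured on the Affymetrix wheat genome array. The 3 arrays of stressed roots were set against 3 arrays of well-watered roots, which are 6 of the 12 arrays of the series. All probe sets other than the AFFX controls entered the comparison, 61179 of the 61290 on the array. Plants were 4 weeks old and grew in a controlled greenhouse. The stressed plants went without water for 7 days from the 4-leaf stage, and the controls were kept watered. The other genotype of the series, A24-39, was grown at the same age under the same watering regimes with 3 arrays per group. Its arrays enter the shared estimate of spread behind every SE, p-value and call for Y12-3. Otherwise they are used here only where a difference from Y12-3 is tested or where arrays outside the Y12-3 contrast are needed. The labels call the arrays biological replicates, and whether RNA came from single or pooled plants is not given. An RNA sample from whole roots mixes cell types, so fewer cells of a type and less RNA per cell cannot be told apart.

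Roots are the first organ to meet drying soil. As background, water deficit in plants raises abscisic acid, a hormone that switches on protective proteins such as dehydrins and late embryogenesis abundant proteins, enzymes of osmolyte synthesis and detoxifying enzymes. Elongation growth slows at the same time, and genes of the cell wall and cytoskeleton that serve growth are commonly lowered. Wild emmer grows across a wide range of rainfall, and its genotypes are used to study drought resistance in wheat.

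Each value is a log-like score in deposited units. Read as an unscaled natural logarithm 1 unit is a ratio of 2.72, read as base 2 it is a ratio of 2, and neither reading is settled. The 23 control probe sets without a wheat target gave a bound for detection, the brightest of them on each array, which lay between -0.27 and -0.09 on the 6 Y12-3 arrays. Between 35.4% and 47.8% of probe sets were above it. Both the lowest bound and the highest share belonged to the third well-watered array, which correlated at 0.973 with each of its 2 replicates, while these correlated at 0.990 with each other. The stressed arrays correlated at 0.981 to 0.991 among themselves and at 0.887 to 0.923 with well-watered arrays. The second stressed array was the nearest to the well-watered ones, at 0.912 to 0.923, against 0.887 to 0.897 for the other stressed arrays. For dap, a bacterial control RNA spiked in before labelling, the 3′ probe set exceeded the 5′ one by 1.36, 1.36 and 1.02 in the well-watered and 0.87, 0.80 and 0.87 in the stressed arrays. The groups did not overlap in this measure. A fit with it as a covariate was among the alternatives. As a check of the tissue label, both probe sets of petC, a chloroplast electron transport protein, were at background on all 6 arrays. Of the other gene of the shoot list, FBP, 1 probe set was at background throughout and 1 was above the bound on 1 well-watered and 2 stressed arrays. No marker of the root list could be matched by symbol.

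Water stress changed 11716 probe sets in Y12-3 roots (limma, Benjamini-Hochberg adjusted p under 0.05), which is 19.2% of those tested. Rises numbered 6765 (11.1% of all) and falls 4951 (8.09%). Small rises outnumbered small falls, while larger differences leaned the other way until the largest ones. Among calls of 0.25 to 0.5 units 2783 rose and 1549 fell, and at 0.5 to 1 unit 1395 rose and 1175 fell. At 1 to 2 units 410 rose and 581 fell, at 2 to 3 units 86 rose and 125 fell, and at 3 units or more 64 rose and 37 fell. In all, 560 rose (0.915% of all) and 743 fell (1.21%) by at least 1 unit. The largest differences were 5.19 and -4.65. Of the 50555 probe sets with a difference under 0.25 units, 2027 rose and 1484 fell. The arrays of the groups did not overlap in 33.7% of probe sets, with the stressed arrays higher in 17.3% and lower in 16.4%.

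The balance of rises and falls depends on spike-in scaling and on the dap covariate. When arrays were shifted to equal spike-in levels the median of all differences moved by 0.107, the calls were 8989 rises and 2289 falls, and the rises of at least 1 unit (673) then outnumbered the falls (645). With the dap difference as a covariate 2787 rose and 2860 fell. Other alternatives kept the balance. Without the third stressed array 4530 rose and 3201 fell, so that rises were 58.6% of calls, near the 57.7% of the main fit. After quantile normalization they were 57.3%.

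**Figure D1:**
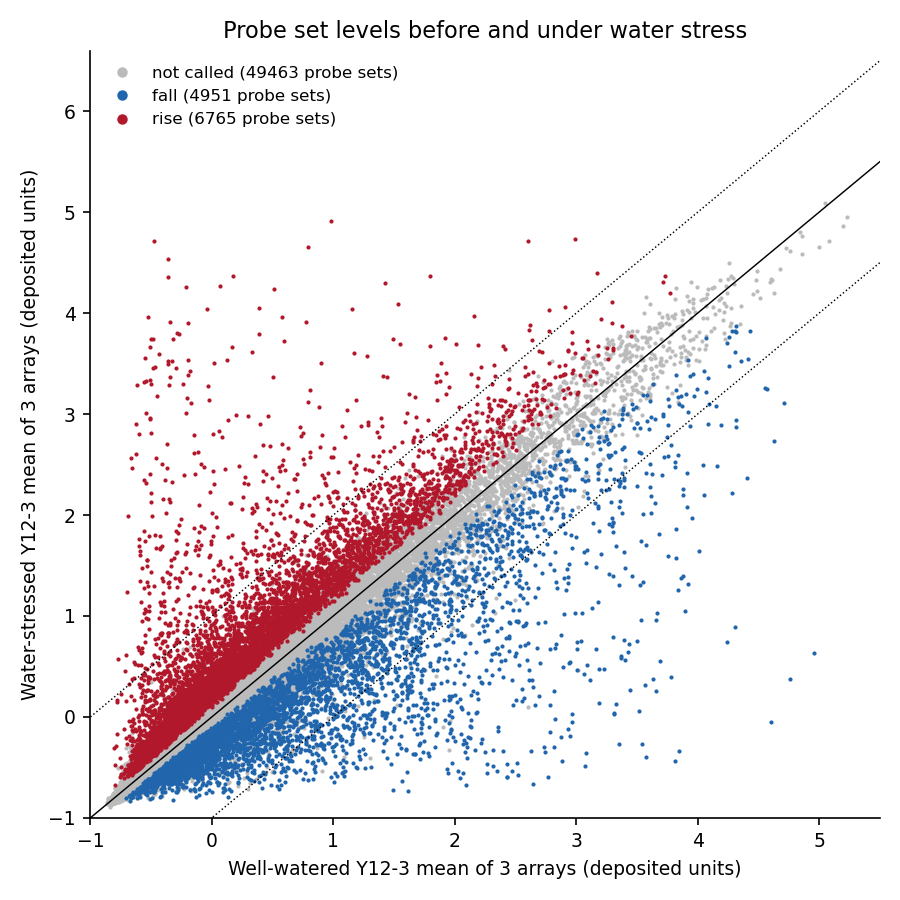
Mean level of each probe set in well-watered (x) and water-stressed (y) Y12-3 roots, in deposited units, coloured by limma call. The solid line marks equality and the dotted lines mark a difference of 1 unit. Rises spread over the left of the plot up to 5.19 units above the line, and the deepest fall is -4.65.

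**Figure D2:**
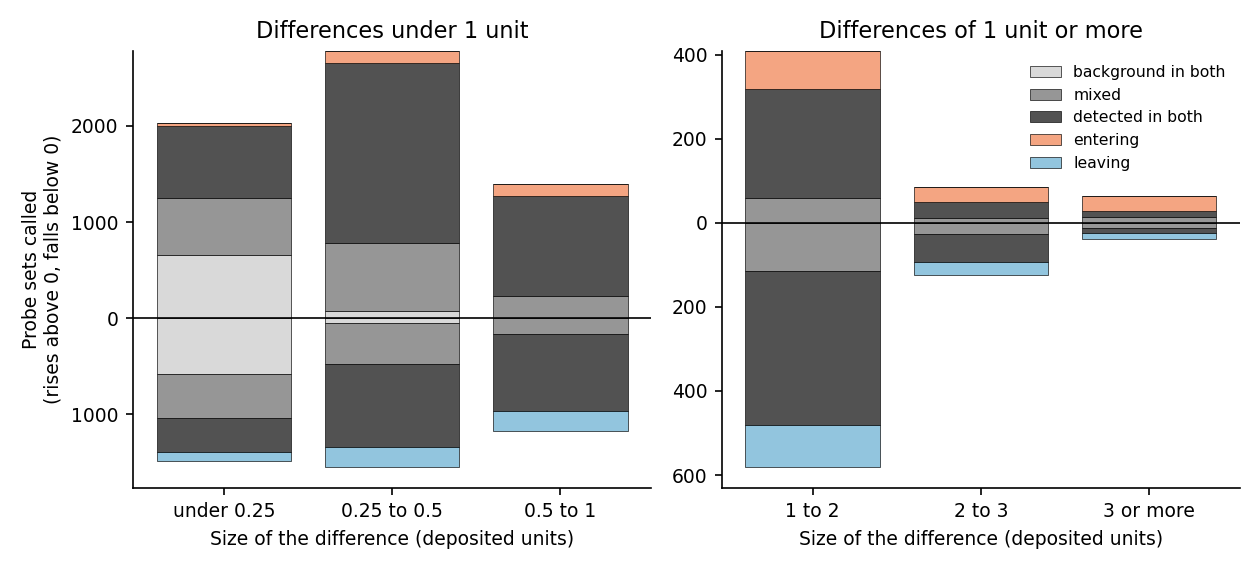
Number of probe sets called, by size of the difference in deposited units (x) and direction, with rises above and falls below 0 (y, different scales in the panels). Shades give the detection class on the 6 Y12-3 arrays. At 1 to 2 units 410 rose and 581 fell, and at 3 units or more 64 rose and 37 fell.

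Large falls lay at high starting levels. Of the 743 falls of at least 1 unit, 574 started in the highest quartile of the well-watered mean among probe sets detected there, 160 in the third, 9 in the second and 0 in the lowest. The lowest quartile ended at 0.16 units and the lowest well-watered mean of any probe set was -0.86, which leaves little room for a fall of 1 unit from there. Rises of at least 1 unit were spread over all levels, with 163 of 560 from background, 83 from probe sets above the bound on only some well-watered arrays and 58, 87, 100 and 69 from the lowest to the highest quartile. In the highest quartile (well-watered means of 1.26 to 5.23) 16.6% of probe sets rose and 26.3% fell, and the median difference was -0.07. In the third quartile 23.0% rose and 17.6% fell, with a median of 0.03. At background 4.88% rose and 2.02% fell.

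The well-watered arrays enter both the starting level and the difference, so the relation is partly built in. With quartiles taken from well-watered A24-39 roots, which share no array with the difference, 450 of the 743 large falls lay in the highest quartile, where 18.2% rose and 23.9% fell. The median there was -0.05. With quartiles from the mean of both Y12-3 groups only 262 of the large falls lay in the highest quartile, and the balance turned, with 24.5% rising and 17.5% falling. In the Y12-3 quartile the median had an SD of 0.05 over the 3 stressed arrays, and it was 0.0347 after spike-in rescaling and 0.00528 with the dap covariate, so its sign is not settled.

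The very brightest probe sets were examined in the same way. Of the 100 probe sets with the highest well-watered means (4.00 and above) 0 rose and 37 fell, with a median difference of -0.33. Without the third well-watered array the falls were 59, with the dap covariate 17, and with the 100 taken by their level in well-watered A24-39 they were 22, with 2 rises. They were 14, with 3 rises, when the 100 were taken by the mean of both Y12-3 groups, and 64 with array weights. Only 48 of the 100 were also among the 100 highest under stress. Conversely, 4 of the 100 highest stressed levels belonged to probe sets that had been at background in all well-watered arrays.

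**Figure D3:**
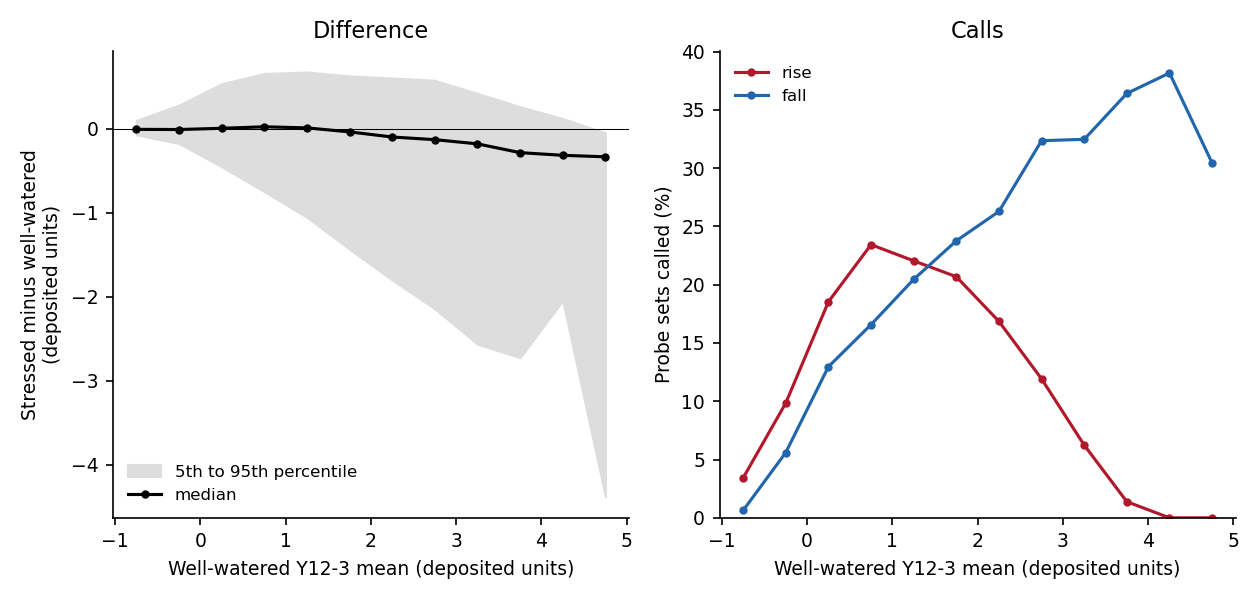
Left, the difference between stressed and well-watered Y12-3 roots in deposited units, as median and 5th to 95th percentile, by well-watered mean in steps of 0.5. Right, the share of probe sets called in each direction. Rises peak at 23.4% between 0.5 and 1, and falls reach 38.2% between 4 and 4.5, where 0% rose.

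Probe sets were then sorted by detection, where detected means above the bound on all 3 arrays of a group and background means at or under it on all 3. Both groups were detected for 19163 probe sets, and both were at background for 30187. A further 462 entered detection under stress, 778 left it, and 10589 were mixed, with a group on both sides of the bound. The measured values themselves make these classes, so the calls within them are a description. Probe sets detected in both groups held 54.9% of all calls and mixed ones 24.1%. Those at background in both held 1360 calls (725 rises and 635 falls), which were small, with no difference above 0.49 in size.

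Entering probe sets started at a median of -0.39 and reached a median of 0.27 under stress. Of the 462, 447 were called, 162 by at least 1 unit, and 108 reached a stressed mean over 1. In both groups 202 of them kept at least 0.1 units from the bound. The well-watered level was not measured above background, so the differences could not be measured in full. They are not lower bounds either, since choosing the class by these values favours large differences. The size of the class rests on the bound of single arrays: without the third well-watered array 1642 probe sets entered, of which 1365 were called, and with the highest group mean of a non-target control as bound 896 entered and 816 were called.

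LOC542888 headed the entering genes with a symbol. These symbols are placeholders without a description in the annotation used, so no function is given for them. Its well-watered arrays read -0.52, -0.50 and -0.63 and its stressed arrays 3.64, 3.31 and 3.72, a difference of 4.11 ± 0.12 (SE, limma adjusted p = 1.07e-07). Both of its probe sets entered, the other by 3.94. LOC542804 went from -0.27, -0.36 and -0.67 to 3.95, 3.17 and 3.67. For LOC543084 the arrays read -0.31, -0.37 and -0.41, then 3.78, 3.18 and 3.63. In all 3 genes the second stressed array was the lowest of its group and still lay more than 3 units above every well-watered array.

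LOC543293 was measured by 3 probe sets, all of which rose. One entered, from -0.60, -0.56 and -0.69 to 3.59, 2.82 and 3.46, a difference of 3.91 ± 0.27 (SE, limma adjusted p = 7.45e-06). The other 2 were detected from the start and rose by 3.73 and 3.66. LOC543108 was the most uneven, with well-watered values of -0.38, -0.37 and -0.35 and stressed values of 3.14, 1.67 and 3.31. Its second stressed array lay well under the others. Over all probe sets that array also differed less from the well-watered mean. On it 501 were at least 1 unit higher and 681 lower, against 656 and 858 on the first and 637 and 905 on the third. LOC543108 differed by 3.07 ± 0.40 (SE, limma adjusted p = 0.000435). The second probe set of this gene stayed at background in both groups. Among identifiers without a symbol, Ta.2638.1.S1_at entered highest, from -0.44, -0.44 and -0.55 to 4.88, 4.38 and 4.89.

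Leaving probe sets started low, which the class definition favours, since a small fall reaches background only from near the bound. Their median well-watered level was 0.11 and only 82 of the 778 had stood over 1, against 6611 of the 19163 detected in both. Of the 778, 651 were called, 144 of them by at least 1 unit. The stressed level was at background, so these falls could not be measured in full, and the class was chosen by the same values. After spike-in rescaling 449 of the 778 were called, and with the dap covariate 439. In both groups 248 of them kept at least 0.1 units from the bound.

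The deepest exit with a symbol was that of LOC778415, from 1.67, 2.11 and 1.36 to -0.29, -0.24 and -0.25. It differed by -1.97 ± 0.32 (SE; adjusted p = 0.00183 by limma). This call was lost with the dap covariate (limma adjusted p = 0.127). Of its 3 probe sets 2 fell, the other of these by 0.33 at background, and the third differed by 0.01. LOC606365 followed with 0.60, 0.71 and 1.26 against -0.29, -0.39 and -0.37, and both of its probe sets left detection. THI1.1, which has its paragraph below among the genes with a descriptive symbol, was the third largest. LOC606366 fell on all 4 of its probe sets, of which 1 left detection, from 0.33, 0.35 and 0.66 to -0.34, -0.30 and -0.36. LOC543138 went from 0.67, 0.23 and 0.22 to -0.46, -0.20 and -0.18, a narrow exit whose call was lost with the dap covariate (limma adjusted p = 0.185). Without a symbol, Ta.9401.1.S1_x_at left from 3.65, 4.00 and 3.79 to -0.39, -0.48 and -0.44, which took an abundant signal to background on every stressed array.

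**Figure D4:**
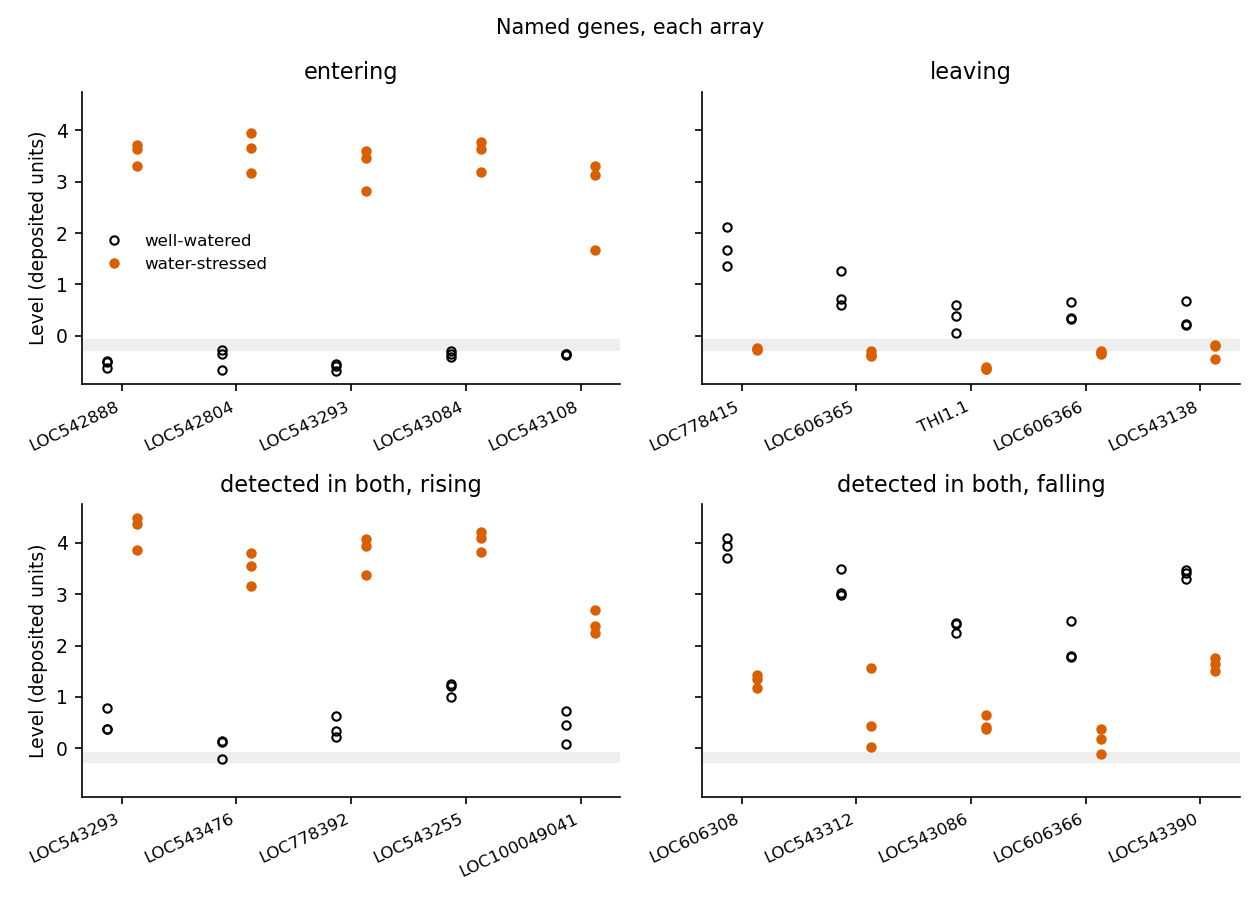
Level on each array, in deposited units, of the 5 genes with a symbol and the largest difference in each of the classes entering, leaving, rising and falling. Open circles are well-watered and filled circles stressed Y12-3 arrays, and the grey band spans the detection bounds of the 6 arrays. The groups do not overlap for any of these genes, and the entering genes reach levels between 1.67 and 3.95.

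Among probe sets detected in both groups 3972 rose and 2464 fell, 314 and 446 of them by at least 1 unit. Here both levels were above the bound on all arrays. LOC543255 moved from 0.995, 1.22 and 1.24 to 4.20, 3.82 and 4.09, a difference of 2.88 ± 0.13 (SE, limma adjusted p = 5.69e-07). LOC543476 started nearer the bound, at 0.12, 0.14 and -0.21, and reached 3.81, 3.16 and 3.56. LOC778392 gave 0.21, 0.32 and 0.62 against 4.07, 3.38 and 3.93 on its strongest probe set. A second probe set of LOC778392 rose by 2.05, and the third differed by -0.02 although it was detected in both groups. LOC100049041 was the smallest of the 5, from 0.46, 0.72 and 0.08 to 2.24, 2.38 and 2.69. The largest rise of a detected probe set without a symbol was that of Ta.8085.1.S1_at, from 0.06, 0.22 and -0.09 to 4.52, 3.91 and 4.38.

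Falling genes that stayed detected began higher, which the choice favours, since a large fall that ends above the bound must start high. LOC606308 fell from 3.70, 3.95 and 4.10 to 1.43, 1.16 and 1.35, and the differences of its probe sets were -2.60 and -2.58. LOC543390 fell from 3.30, 3.48 and 3.42 to 1.502, 1.75 and 1.65, and LOC543086 from 2.25, 2.42 and 2.43 to 0.37, 0.64 and 0.41. Each of these groups was tight, with an error of the difference of 0.22, 0.08 and 0.09 (SE; limma adjusted p = 3.6e-05, 7.84e-07 and 8e-07). LOC543312 was not, with well-watered arrays at 3.49, 3.02 and 2.98 and stressed arrays at 0.43, 1.56 and 0.03. Its difference of -2.49 ± 0.52 (SE, limma adjusted p = 0.0068) was not called with the dap covariate (limma adjusted p = 0.099). The strongest probe set of LOC606366 fell from 1.78, 1.80 and 2.48 to 0.18, -0.11 and 0.36. Without a symbol, Ta.5148.3.S1_x_at went from 4.71, 4.78 and 4.80 to -0.01, 1.12 and 0.01, and its second stressed array stayed above the other two.

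The 3 brightest genes with a symbol gave no call. LOC543231 read 5.42, 5.40 and 4.79 in well-watered and 4.93, 4.76 and 4.91 in stressed roots. LOC100037561 read 5.21, 5.39 and 4.55 against 4.998, 5.07 and 5.21, and LOC778417 read 4.95, 4.84 and 4.24 against 4.43, 4.37 and 4.495. In each of them the third well-watered array was the lowest of its group by more than 0.5 units. Without it LOC543231 and LOC778417 differed by -0.54 and -0.46 (limma adjusted p = 0.03 and 0.0231), past the threshold. With the dap covariate their direction turned, to 0.05 and 0.14 (limma adjusted p = 0.95 and 0.833), so neither a fall nor its absence is settled.

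In all, 1273 probe sets of 771 genes had a symbol, and 28.5% of them were called, 212 rising and 151 falling, against 19.2% of all probe sets. Of the symbol probe sets 661 were detected in both groups, a class with 33.6% called over the whole array. Another 31 entered and 20 left. Only 13 genes (19 probe sets) had a symbol that is not a placeholder. Of the 11 lists of stress, growth, defence and marker genes, 5 had any match, with 12 probe sets of 7 genes among them, and 1 of these probe sets rose and 3 fell, where 11.1% of all probe sets rose and 8.09% fell. So few matches give no result about the lists.

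COR410, a dehydrin of the cold and drought response, was the protective gene that could be followed. Its well-watered arrays read -0.15, -0.26 and -0.37 and its stressed arrays 0.09, 0.01 and 0.00, close to the bound throughout. The rise of 0.29 ± 0.06 (SE, limma adjusted p = 0.0044) held under all 15 alternatives run for it. CAT1, which encodes a catalase that breaks down hydrogen peroxide, was at background on both probe sets, with differences of 0.05 and -0.03.

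THI1.1, held in the defence list by its symbol, fell on both probe sets. One left detection, from 0.06, 0.59 and 0.39 to -0.65, -0.64 and -0.62, a difference of -0.98 ± 0.12 (SE, limma adjusted p = 0.000303). The other fell from 0.49, 0.94 and 0.74 to 0.01, -0.01 and 0.03, a difference of -0.71 ± 0.08 (SE, limma adjusted p = 0.00026). In A24-39 these probe sets differed by -0.42 and -0.07 (limma adjusted p = 0.0487 and 0.706). Their well-watered A24-39 means were -0.10 and 0.12, near the bound, where a fall could not be measured in full. The interactions with genotype, -0.56 ± 0.17 and -0.65 ± 0.12 (SE), missed the threshold (adjusted p = 0.381 and 0.112 by limma). THI1.2 and TTHV were at background on every Y12-3 array, with differences of -0.001 and -0.08.

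Of the growth genes, TUBA encodes alpha-tubulin, a subunit of microtubules. Its bright probe set read 4.53, 4.43 and 3.98 in well-watered and 3.83, 3.90 and 3.89 in stressed roots, with the third well-watered array only 0.09 above the highest stressed one. The fall of 0.44 ± 0.14 (SE, limma adjusted p = 0.0451) was lost in 10 of 14 alternatives, with a difference of -0.18 under the dap covariate (limma adjusted p = 0.724). The other TUBA probe set was at background and differed by -0.09. XTH, an enzyme that remodels xyloglucan in the cell wall, read 0.08, -0.10 and 0.17 against -0.29, -0.27 and -0.25. Its groups did not overlap, but its difference of -0.32 ± 0.17 (SE, limma adjusted p = 0.245) did not pass. In a fit of the 6 Y12-3 arrays alone it did (limma adjusted p = 0.0277).

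SAHH, which encodes S-adenosylhomocysteine hydrolase of the methyl cycle, was bright on both probe sets, at means of 4.15 and 3.70 in well-watered and 3.99 and 3.56 in stressed roots. Its differences of -0.16 and -0.14 did not pass, but without the third well-watered array they were -0.40 and -0.37 and did (limma adjusted p = 0.0167 and 0.0219). With the dap covariate the direction turned, to 0.22 and 0.25 (limma adjusted p = 0.735 and 0.677). TBP1, the TATA-binding protein of basal transcription, rose from 0.76, 0.80 and 0.96 to 1.04, 1.14 and 1.09. That rise of 0.25 ± 0.07 (SE, limma adjusted p = 0.0334) was lost in 8 of 15 alternatives, with a difference of 0.18 under the dap covariate (limma adjusted p = 0.48).

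The remaining genes with a descriptive symbol gave no call. GAPN, a glyceraldehyde-3-phosphate dehydrogenase that yields NADPH, read -0.29, -0.13 and 0.34 against -0.41, -0.50 and -0.45. Its groups did not overlap, but the difference of -0.43 ± 0.19 (SE, limma adjusted p = 0.158) fell short with the wide well-watered spread. PFK, a kinase of glycolysis, was at background and differed by 0.01. FBP, a fructose-bisphosphatase of sugar synthesis that serves here as a shoot marker, differed by 0.11 and 0.04, and petC by 0.00 and 0.03. The 4 shoot marker probe sets gave 0 calls by limma, and 0 had an unadjusted p under 0.05, but only 1 of them came above the bound on any array. That one, of FBP, was called in 2 of 14 alternatives, at 0.27 with the dap covariate (limma adjusted p = 0.0488) and 0.17 without the first well-watered array (limma adjusted p = 0.0466).

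Probe sets whose identifiers share a number come from 1 sequence cluster of the array design and may share transcripts or probes. There were 8842 such clusters with 2 or more probe sets. In 1722 of them at least 2 were called, and these calls ran one way in 98.6%: 981 clusters rose, 717 fell and 24 held both directions. Leaving out identifiers ending in _s_at and _x_at, whose probes can match several transcripts, the share was 97.6% of 832. Genes with a symbol gave 1 exception among 60 with at least 2 calls, LOC543250, with 1 probe set up and 1 down. The array also carries 64 probe sets for reporter genes such as those used in transgenic plants, which are not wheat genes. By limma 0 of the 64 were called, against 19.2% of all probe sets, and 3 had an unadjusted p under 0.05. Of the 64, 57 were at background in both groups, a class with 4.51% called over the whole array, so 0 calls says little. Another 5 were detected in both, with a mean of up to 5.08. A level above the bound therefore does not by itself show that the intended transcript was present.

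The probe sets picked on the Y12-3 arrays were looked up in A24-39, whose arrays played no part in the choice. Of the 462 that entered in Y12-3, 314 rose in A24-39 by limma, where 5.34% of all probe sets rose. Detection in A24-39 was entered by 250 of the 462, and by 889 of all 61179 probe sets. The median difference of the 462 was 0.69 in Y12-3 and 0.43 in A24-39, and the first of these was part of the choice. Of the 778 that left, 451 fell in A24-39, against 5.35% of all, and their medians were -0.47 in Y12-3 and -0.35 in A24-39. Detection in A24-39 was left by 267 of the 778, and by 482 of all 61179 probe sets.

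A difference between the genotypes' responses was tested by the interaction, which called 52 probe sets (0.085% of all, while 5095 had an unadjusted p under 0.05). By their Y12-3 class 17 of them were leaving, 8 entering, 5 detected in both groups, 11 at background in both and 11 mixed. The count was 625 without the third well-watered Y12-3 array and 26 to 34 without any other single Y12-3 array. The probe sets singled out here were chosen after their values were seen. All 4 probe sets of the cluster Ta.19210 that were called left detection in Y12-3. On the strongest, Ta.19210.1.A1_a_at, the Y12-3 arrays read 1.43, 1.64 and 1.63 in well-watered and -0.66, -0.64 and -0.59 in stressed roots, while the A24-39 arrays read -0.31, -0.06 and -0.20, then -0.64, -0.55 and -0.53. Well-watered A24-39 was at or near background, where a fall could not be measured in full, and a sequence difference under the probes was not tested. Its interaction was -1.82 ± 0.10 (SE, limma adjusted p = 7.71e-05).

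The 5 that stayed detected in Y12-3 were also above the bound on the A24-39 arrays, apart from 1 well-watered array for TaAffx.40933.1.S1_at. Ta.10.1.S1_a_at read 2.45, 2.48 and 2.46 in well-watered and 1.64, 1.57 and 1.74 in stressed Y12-3, a fall of 0.82 ± 0.06 (SE, limma adjusted p = 1.04e-05). In A24-39 it read 2.28, 2.09 and 2.23, then 2.09, 2.23 and 2.11, with overlapping groups and a difference of -0.06 ± 0.06 (SE). The interaction of -0.76 ± 0.08 (SE, limma adjusted p = 0.0093) kept its call when any 1 Y12-3 array was left out, and lost it with the replicate block and after spike-in rescaling. Ta.3628.1.S1_at fell by 0.49 in Y12-3 and rose by 0.38 in A24-39 (limma adjusted p = 0.0019 and 0.0122). TaAffx.16775.1.A1_at, TaAffx.40933.1.S1_at and TaAffx.78422.1.S1_at rose more in Y12-3, by 0.85, 1.05 and 0.38 against 0.35, 0.29 and 0.09. The interactions of these 4 were lost in 4 or 5 of the 6 fits without a single Y12-3 array.

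**Figure D5:**
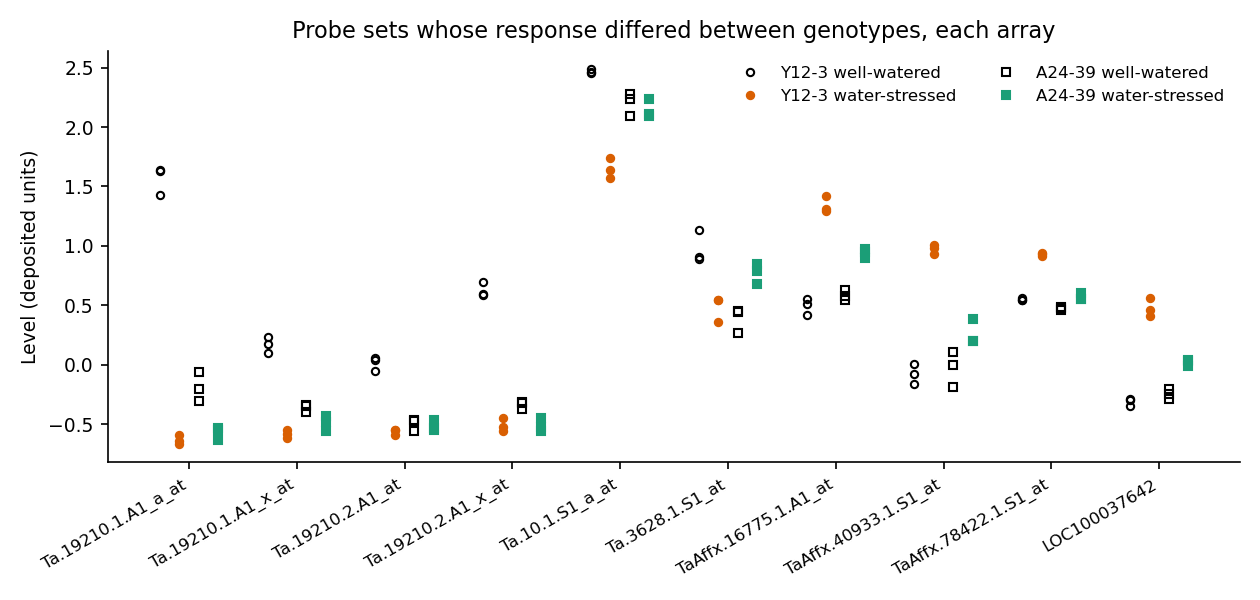
Level on each of the 12 arrays, in deposited units, of 10 probe sets whose stress response differed between Y12-3 (circles) and A24-39 (squares) by the interaction test. Open symbols are well-watered and filled symbols stressed. The 4 probe sets on the left fell to background in Y12-3 from levels that A24-39 did not show, and Ta.10.1.S1_a_at fell by 0.82 in Y12-3 against a difference of -0.06 in A24-39.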

How the data were processed

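The authors deposited a log-like score for each probe set and array. The submitters' processing notes name RMA, which corrects background, normalizes and summarises probes, and give no version for it. Array means lay near 0, and no source used here states the log base, the centring or a scaling. Values were used as deposited. limma 3.58.1 in R 4.3.3 (lmFit, eBayes) fitted 4 group means over 12 arrays, with 8 residual degrees of freedom, and Benjamini-Hochberg adjustment over 61179 probe sets at a threshold of 0.05. Errors are moderated SEs. The fit was tested on simulated data. The number of arrays limits the precision. Each p-value sets a difference against a moderated spread within groups, estimated from all 12 arrays.

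Named genes are the 5 largest non-overlapping calls with a symbol in each of 4 classes, the 3 brightest genes, every symbol that does not begin with LOC, list members and 4 identifiers without a symbol. Array annotation gave 1 symbol to 1273 probe sets, several to 0 and none to 59906, and 0 of their gene identifiers occur in RefSeq's table for WEW_v2.1. Members, lists and tests were chosen with earlier results of these data known. Alternatives changed the normalization, scaling, covariates, weights, prior, filters, detection bound and arrays. Same-numbered well-watered and stressed arrays did not deviate together (correlations of -0.10, 0.05 and -0.07), so numbers were not treated as pairs.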

Additional observations from a re-analysis of the deposited data

Results flagged for a closer look

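Each result here is a stress response that differed between Y12-3 and A24-39 by the interaction test (limma, adjusted p under 0.05). Values are the Y12-3 minus the A24-39 response in deposited units. Interaction calls with the larger response in A24-39 are not listed here. In the cluster Ta.19210 the values were -1.82 for Ta.19210.1.A1_a_at, -0.62 for Ta.19210.1.A1_x_at, -0.56 for Ta.19210.2.A1_at and -0.96 for Ta.19210.2.A1_x_at. These share a cluster and are not independent. With the replicate block the last 3 lost their call, and after spike-in rescaling Ta.19210.1.A1_x_at and Ta.19210.2.A1_at did. Their well-watered means were 1.57, 0.17, 0.02 and 0.62 in Y12-3 and -0.19, -0.36, -0.50 and -0.34 in A24-39.

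Of probe sets detected in both Y12-3 groups, Ta.10.1.S1_a_at gave -0.76, Ta.3628.1.S1_at -0.88, TaAffx.16775.1.A1_at 0.49, TaAffx.40933.1.S1_at 0.76 and TaAffx.78422.1.S1_at 0.29. LOC100037642 entered detection in Y12-3 and gave 0.52. Its call and that of Ta.10.1.S1_a_at were lost with the replicate block and after spike-in rescaling. The array weights of the third well-watered arrays were low, at 0.29 in Y12-3 (replicates 1.51 and 1.21) and 0.30 in A24-39 (replicates 1.04 and 1.71). No array was removed as an outlier in the main fit.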

How the results depend on the processing

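The count of 11716 calls was 5647 with the dap covariate and 17674 with array weights, and 7731 to 12294 when 1 Y12-3 array was left out. A fit of the 6 Y12-3 arrays alone gave 10138. Entering calls (447) were 816 under the highest group mean of a non-target control as bound and 440 to 1365 without 1 array. Falls of at least 1 unit (743) were 461 without _s_at and _x_at identifiers, which tests fewer probe sets. The median difference in the highest quartile of starting level (-0.07) was 0.0347 after spike-in rescaling, 0.00528 with the dap covariate and 0.0373 with quartiles from the mean of both groups, and -0.11 to -0.05 without 1 array. The interaction count (52) was 117 after spike-in rescaling, 865 with array weights and 140 with a trend and robust prior, and 26 to 625 without 1 array. The causes were not tested. With the replicate number as a block the response had 9896 calls and the interaction 5, and the numbers did not pair the arrays. These interaction alternatives were added after seeing the data. Calls among leaving probe sets (439 to 828) and rises of at least 1 unit (424 to 673) stayed within 1.5 times their counts under all alternatives run. Of 28 named probe sets with a call, 23 kept it under every alternative. The exceptions were TUBA, TBP1, LOC778415, LOC543138 and LOC543312. Most of the 28 were chosen as the largest differences of their class, which favours keeping a call. Levels at background limit what can be measured.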

Other observations

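The kinds of identifier differed in how often they were measured. Of 31438 probe sets with identifiers starting in Ta, 45.2% were detected in both Y12-3 groups, against 16.7% of the 29677 starting in TaAffx, and 25.4% against 12.6% were called. Among those detected in both groups 36.3% and 25.9% were called. The 10643 identifiers with the orientation letter A were called as often as the 50472 with S, at 19.2% each, and 33.0% and 31.0% were detected in both groups.

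Entering and leaving probe sets were scattered over many clusters. The 462 entering ones carried 412 cluster numbers, of which 34 held 2 or more, and the 778 leaving ones carried 698, of which 54 did. No cluster held more than 5 of either class.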
